A study of Rattus norvegicus with 6 samples.

Results

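The genes described here are those of polyamine and arginine metabolism, chosen by name in the table of expression values. The rule names 10 genes, which are Odc1, Amd1, Srm, Sms, Sat1, Azin1, Oaz1, Oaz2, Arg1 and Arg2. Of these, 9 were found by symbol among the 28293 genes of the table, and Sat1 was not matched and was not analysed here. Arg2 lay under the filter on low values (a mean of at least 0.5 over the samples), so 8 of the 10 genes were among the 10942 genes tested.

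Polyamines are small positively charged molecules that bind nucleic acids and are needed for translation and growth. Arginases split arginine into ornithine and urea, ornithine decarboxylase turns ornithine into putrescine, and spermidine synthase and spermine synthase add aminopropyl groups that come from decarboxylated S-adenosylmethionine. The first step is held in check by antizymes, which bind ornithine decarboxylase and take it to the proteasome. Antizyme mRNA is read through a frameshift that polyamines promote, so its protein level need not follow its mRNA. In the heart, arginase and nitric oxide synthase draw on the same arginine.

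Myocardial tissue of WT male rats was sequenced in 2 groups, sham and I/R (myocardial ischemia/reperfusion), with 3 samples in each. In the I/R group the left anterior descending coronary artery was tied under anesthesia through a left thoracotomy for 30 min and released, and the heart was taken after 6 h of reperfusion. The titles of the sham samples carry the same times, and neither the region of the heart nor the age and strain of the rats was given in the sources used here. The labels do not say that each sample is a separate rat, so the p-values measure only the spread between these samples. Values are FPKM, fragments scaled to gene length and to library size, as the authors deposited them.

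The libraries differed in composition. The 13 mRNAs encoded by mitochondrial DNA held 80.1% to 86.2% of the summed FPKM in the sham samples and 61.8% to 71.5% in the I/R samples, with the lowest share in I/R replicate 1. FPKM are shares of a library, so each comparison was also made after rescaling every sample over the genes other than these mRNAs. Across all genes tested the log2 fold change had a median of 0.29 as deposited and of −0.46 after the rescaling, and 77.6% of all calls were higher in the I/R group before it and 21.7% after it. Of the 7 cardiomyocyte markers 6 were found. They summed to between 3219 and 10510 FPKM in the sham samples and to between 21170 and 30371 FPKM in the I/R samples. Of these, 5 were called higher as deposited, against 25.5% of all genes tested, and 4 after the rescaling, against 7.25%. Their median log2 fold change was 2.10 as deposited and 1.31 after the rescaling. The fibroblast markers summed to 416 to 574 FPKM in the sham samples and to 590 to 653 FPKM in the I/R samples, and the endothelial markers to 141 to 182 FPKM and 156 to 179 FPKM. Their direction turned with the scaling, with median log2 fold changes of 0.42 and 0.013 as deposited and −0.36 and −0.77 after the rescaling. After it, 2 of 6 and 3 of 6 were called lower, against 26.1% of all genes tested. The part of these shifts in the results below was not tested, and in such tissue a change in the share of a cell type and in the RNA of each cell cannot be told apart.

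Ornithine decarboxylase and spermidine synthase, the enzymes that make putrescine and spermidine, were higher after reperfusion, and so, as deposited, were both antizymes and the antizyme inhibitor, of which only Oaz1 stayed called after the rescaling. Of the 8 genes tested, 5 were called higher in the I/R group and 0 lower at an adjusted p under 0.05 (limma, Benjamini-Hochberg adjustment over all genes tested). Among all genes tested, 25.5% were called higher and 7.36% lower. At an unadjusted p under 0.05, 6 were higher and 0 lower, against 33.7% and 11.0% of all genes. In 6 of the 8 every I/R sample was above every sham sample, as in 37.2% of all genes tested. The median log2 fold change of the 8 genes was 0.87, against 0.29 over all genes. After the rescaling 3 of the 8 were called higher, which were Odc1, Srm and Oaz1, against 7.25% of all genes, and 0 were called lower, against 26.1%. At an unadjusted p under 0.05, 3 were then higher and 1, Amd1, lower, against 9.80% and 35.7% of all genes.

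**Figure D1:**
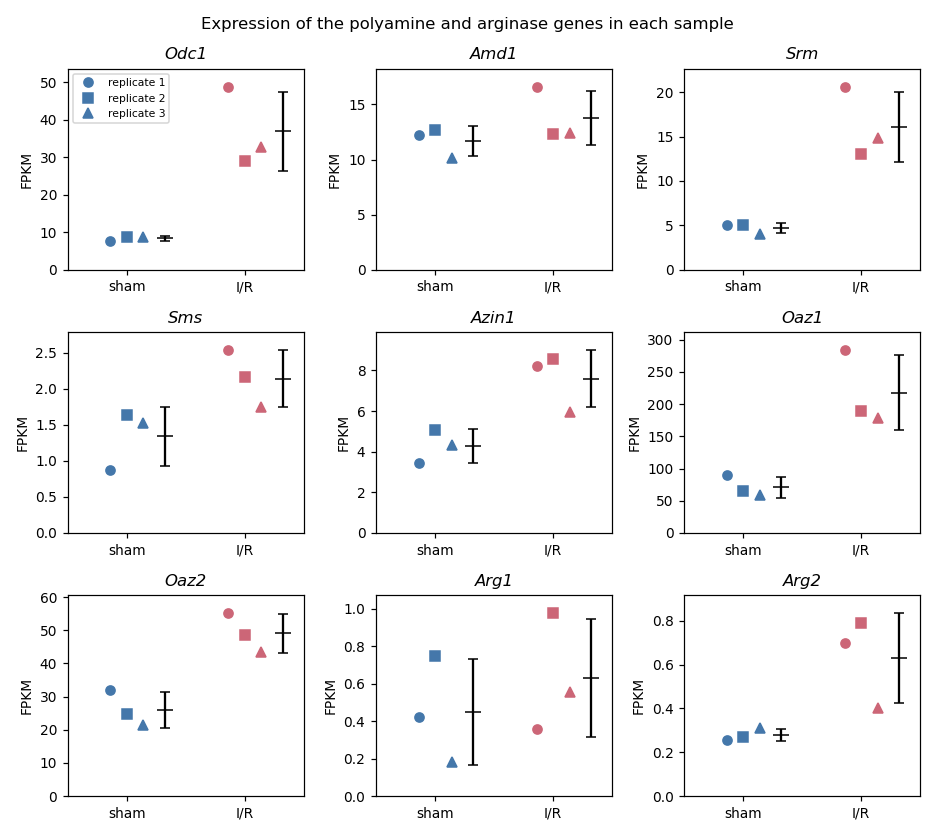
FPKM of the 9 genes found in the table, 1 panel for each gene with its own axis from 0. Circles, squares and triangles are replicates 1, 2 and 3 of the sham (blue) and I/R (red) groups, and the black mark with its bar is the mean ± SD (n = 3). The groups are apart for Odc1, Srm, Sms, Azin1, Oaz1, Oaz2 and Arg2 and overlap for Amd1 and Arg1.

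Odc1 (ENSRNOG00000005424) encodes ornithine decarboxylase, the first and usually limiting enzyme of polyamine synthesis. In replicates 1, 2 and 3 of the sham group it measured 7.64, 8.84 and 8.69 FPKM, and in those of the I/R group 48.8, 29.0 and 32.8 FPKM. Values of the samples are given in this order throughout. The sham samples lay close together, every I/R sample was above them, and I/R replicate 1 was the highest. Group means were 8.39 ± 0.654 and 36.9 ± 10.5 FPKM (SD, n = 3 each), a 4.40-fold rise. On the scale of log2(FPKM + 0.1) the difference (the log2 fold change) was 2.09 with a standard error (SE) of 0.25 (limma adjusted p = 0.0015), and 3.01% of the genes tested had a larger one. Relative to the median of all genes the difference was 1.80 as deposited and 1.77 after the rescaling. The rescaling multiplies each sample by 1 factor and moves all genes nearly alike, so such values stay close by construction. This holds for the other genes below as well, so the closeness of these values is no test of the scaling. The rescaled values were 8.47, 13.2 and 13.5 FPKM in the sham samples and 34.9, 24.1 and 27.7 FPKM in the I/R samples, so the groups stayed apart (log2 fold change 1.31, limma adjusted p = 0.0034).

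Srm (ENSRNOG00000011078) encodes spermidine synthase, which makes spermidine from putrescine. Its expression was 5.08, 5.02 and 4.05 FPKM in the sham samples and 20.6, 13.0 and 14.8 FPKM in the I/R samples. As for Odc1, the groups did not overlap and I/R replicate 1 stood highest. The mean rose from 4.72 ± 0.581 to 16.1 ± 3.96 FPKM (mean ± SD, n = 3 each), with a log2 fold change of 1.73 (SE 0.24, limma adjusted p = 0.0029). After the rescaling it was 0.96 (SE 0.26, limma adjusted p = 0.013).

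The other enzymes of the synthesis branch did not pass the test. Amd1 (ENSRNOG00000000585), the S-adenosylmethionine decarboxylase that supplies the aminopropyl groups, was measured at 12.2, 12.7 and 10.1 FPKM in the sham samples and 16.6, 12.3 and 12.4 FPKM in the I/R samples. The groups overlapped, and only I/R replicate 1 was above every sham sample. The log2 fold change was 0.23 (SE 0.23, limma adjusted p = 0.47). The direction of Amd1 turned with the scaling, while relative to the median of all genes it was −0.062 as deposited and −0.09 after the rescaling. After the rescaling its values were 13.5, 19.0 and 15.7 FPKM in the sham samples and 11.8, 10.2 and 10.5 FPKM in the I/R samples, which no longer overlapped, with a log2 fold change of −0.55 (SE 0.25, limma adjusted p = 0.10).

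Sms (ENSRNOG00000007688) encodes spermine synthase, which converts spermidine into spermine, and had the lowest FPKM among the synthesis genes. It was 0.870, 1.63 and 1.52 FPKM in the sham samples and 2.53, 2.16 and 1.74 FPKM in the I/R samples. Every I/R sample was above every sham sample, but I/R replicate 3 exceeded sham replicate 2 by little. The log2 fold change of 0.67 (SE 0.29) had an adjusted p of 0.10 (limma), and after the rescaling it was −0.076 with overlapping groups. Relative to the median of all genes it was 0.38 both as deposited and after the rescaling.

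The antizymes were the most abundant transcripts of the family. Oaz1 (ENSRNOG00000019459), the antizyme found in most tissues, was 89.9, 64.4 and 58.5 FPKM in the sham samples and 284, 189 and 179 FPKM in the I/R samples. Both groups were highest in replicate 1, and they lay far apart. The mean rose from 70.9 ± 16.7 to 218 ± 57.9 FPKM (mean ± SD, n = 3 each), a log2 fold change of 1.61 (SE 0.28, limma adjusted p = 0.0043), and after the rescaling of 0.82 (limma adjusted p = 0.019). After quantile normalization between samples it was 0.59, with an adjusted p of 0.064 (limma).

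Oaz2 (ENSRNOG00000015953), a second antizyme, was 32.0, 24.7 and 21.4 FPKM in the sham samples and 55.1, 48.6 and 43.5 FPKM in the I/R samples. The groups did not overlap, and the log2 fold change was 0.93 (SE 0.24, limma adjusted p = 0.017). Its call did not hold without sham replicate 2 (limma adjusted p = 0.061), without sham replicate 3 (0.075) or without I/R replicate 2 (0.052). After the rescaling the groups overlapped, at 33.2 to 36.9 FPKM in the sham samples and 36.8 to 40.4 FPKM in the I/R samples, and the log2 fold change was 0.14 (limma adjusted p = 0.65).

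Azin1 (ENSRNOG00000005333) encodes the antizyme inhibitor, a relative of ornithine decarboxylase without its activity that binds antizymes and so frees the enzyme. It was 3.42, 5.08 and 4.33 FPKM in the sham samples and 8.21, 8.58 and 5.97 FPKM in the I/R samples. Every I/R sample was above every sham sample, with I/R replicate 3 nearest to them. The log2 fold change was 0.81 (SE 0.25, limma adjusted p = 0.031). The call was lost without sham replicate 1 (limma adjusted p = 0.079), sham replicate 3 (0.081), I/R replicate 1 (0.072) or I/R replicate 2 (0.10), and after the rescaling the log2 fold change was 0.041 (limma adjusted p = 0.93). The call of Azin1 was also lost with samples centred at their medians (limma adjusted p = 0.058) or with no filter on low values (0.055). Relative to the median of all genes, Azin1 was at 0.52 as deposited and 0.50 after the rescaling, and Oaz2 at 0.63 and 0.60. After quantile normalization the log2 fold change was 0.38 for Azin1 and 0.004 for Oaz2 (limma adjusted p = 0.19 and 0.99). The median of all genes was then −0.022, so Oaz2 no longer stood above it by more than a little. With 1 sample left out, between 3 and 5 of the members were called higher, and it was 3 without sham replicate 3 or I/R replicate 2.

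**Figure D2:**
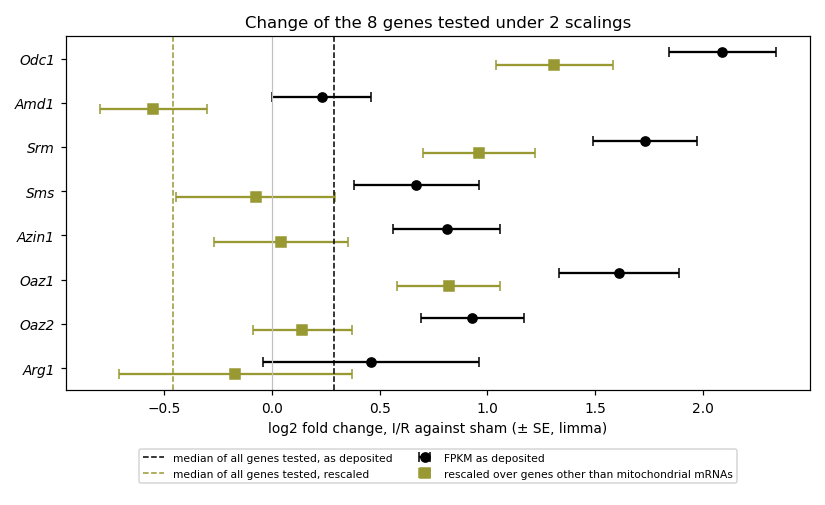
Log2 fold change of the 8 genes tested, I/R against sham, with bars of 1 standard error (limma). Circles use FPKM as deposited and squares the values rescaled with the mitochondrially encoded mRNAs left out, and dashed lines mark the median of all genes tested on each scale, 0.29 and −0.46. Odc1, Srm and Oaz1 stay above 0 on both scales, while Amd1, Sms and Arg1 move to the other side of 0.

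The arginases were the lowest members in FPKM. Arg1 (ENSRNOG00000013304), the cytosolic arginase of liver and of some myeloid cells, was 0.424, 0.745 and 0.180 FPKM in the sham samples and 0.360, 0.975 and 0.553 FPKM in the I/R samples. The groups overlapped almost fully and replicate 2 was highest in both (log2 fold change 0.46, SE 0.50, limma adjusted p = 0.51). Without sham replicate 3 the log2 fold change was 0.043, and without sham replicate 2 it was 0.84. Arg2 (ENSRNOG00000053811), the mitochondrial arginase, was 0.257, 0.272 and 0.311 FPKM in the sham samples and 0.700, 0.790 and 0.401 FPKM in the I/R samples. Its groups did not overlap (p = 0.1 in a two-sided exact permutation test, the smallest that 3 samples against 3 allow). With no filter on low values its log2 fold change was 0.90, with an SE of 0.33 and an adjusted p of 0.11 (limma).

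The table allowed a view of the counts behind these low values. In genes of low expression the FPKM of different samples stood in ratios of whole numbers, which gave depths of 0.873 to 1.18 relative to sham replicate 1. The smallest whole numbers in the ratios of the Arg2 values were 8, 10 and 11 in the sham samples and 19, 23 and 11 in the I/R samples. For Arg1 they were 27, 56 and 13 in the sham samples and 20, 58 and 31 in the I/R samples. If each step is 1 fragment, the Arg2 values rest on 29 fragments in the sham group (exact 95% Poisson interval 19.4 to 41.6) and 53 in the I/R group (39.7 to 69.3), and the intervals cover counting error only. The steps of Odc1 ran from 745 to 4158 and those of Sms from 62 to 157.

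Genes of cells known to hold Arg1 were also looked at. Cps1 and Otc, the urea cycle enzymes of liver mitochondria, were at most 0.00363 and 0.0592 FPKM in any sample. The 4 liver markers summed to 1.91 to 7.28 FPKM in the sham samples and 12.6 to 17.8 FPKM in the I/R samples. Ttr made up nearly all of this sum and was called higher, with means of 5.06 and 15.7 FPKM, whereas Apoa1 was lower in every I/R sample, with means of 0.384 and 0.0692 FPKM, Alb was at most 0.0617 FPKM and Serpina1 was at 0 in all samples. The 6 neutrophil markers summed to 12.9 to 17.7 FPKM in the sham samples and 28.2 to 83.5 FPKM in the I/R samples, with Mpo at 0 throughout. S100a8 and S100a9 made up nearly all of this sum. Of the 4 tested, S100a8, S100a9 and Mmp8 were called higher, against 25.5% of all genes, and after the rescaling S100a9 and Mmp8, against 7.25%. Csf3r was not called and Cxcr2 lay under the filter, while Mmp8 and Csf3r passed it only through the I/R group. The 6 macrophage markers summed to 21.1 to 24.1 FPKM and 17.4 to 21.4 FPKM, and they went different ways. Cd163 and Mrc1 were called lower (limma adjusted p = 0.0057 and 0.04), where 7.36% of all genes were. Cd68 and Adgre1 were higher in every I/R sample but were not called. After the rescaling 3 of the 6 were called lower and 0 higher, against 26.1% and 7.25% of all genes. The part of these cells in the arginase values was not tested.

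FPKM are per length, so levels can be set side by side between genes. In the sham group the order from the highest mean FPKM was Oaz1, Oaz2, Amd1, Odc1, Srm, Azin1, Sms, Arg1 and Arg2. The ranges of Srm and Azin1 overlapped there, as did those of Arg1 and Arg2, and the other neighbours were apart. Arg1 and Arg2 were level in the I/R group. There Odc1 took the third place, at 29.0 to 48.8 FPKM, and its range overlapped that of Oaz2, at 43.5 to 55.1 FPKM. Srm, at 13.0 to 20.6 FPKM, passed Amd1 in mean FPKM, although their ranges overlapped.

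A ratio between genes of the same sample does not move with the scaling of the library, and 5 such ratios were compared. Differences in log2 ratio were taken with 0.1 added to each FPKM, so those of low values can move with the scaling and with this constant. The ratios printed for single samples are of plain FPKM. The Odc1 value divided by that of Azin1 was 2.23, 1.74 and 2.01 in the sham samples and 5.95, 3.38 and 5.48 in the I/R samples, a difference in log2 ratio of 1.28. Divided by Oaz1, Odc1 was 0.0850, 0.137 and 0.149 in the sham samples and 0.172, 0.153 and 0.183 in the I/R samples, a difference in log2 ratio of 0.48. The groups were only just apart in this ratio, and the difference was 0.23 without sham replicate 1.

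Between the antizymes the ratio was lower in the I/R group. Oaz2 divided by Oaz1 was 0.355, 0.384 and 0.366 in the sham samples, which were close together, and 0.194, 0.256 and 0.243 in the I/R samples, all lower, a difference in log2 ratio of −0.68. Srm divided by Sms was 5.84, 3.08 and 2.66 in the sham samples and 8.16, 6.03 and 8.51 in the I/R samples, a difference in log2 ratio of 1.07. Each of these 4 ratios had groups that did not overlap (p = 0.1 in the same exact permutation test, and 0.125 after Benjamini-Hochberg adjustment over the 5 ratios). For Arg2 over Arg1 the groups overlapped (difference in log2 ratio 0.44, exact permutation test, p = 0.5), and the difference was 0.048 without sham replicate 2 and 0.92 without sham replicate 3. It was 0.17 with 1 added to each FPKM and 0.52 with 0.01 added.

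**Figure D3:**
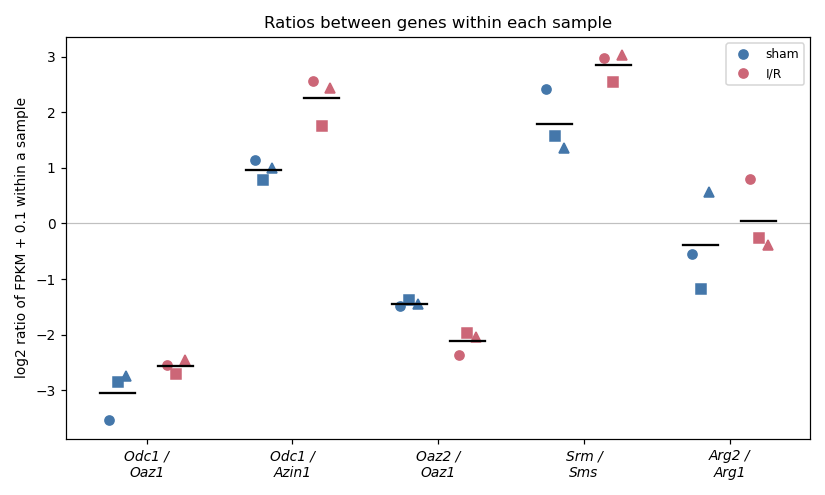
Log2 ratio of the FPKM + 0.1 of the named genes within each sample. Circles, squares and triangles are replicates 1, 2 and 3, blue for sham and red for I/R, and black lines are group means. The I/R samples are above the sham samples for Odc1 over Oaz1, Odc1 over Azin1 and Srm over Sms and below them for Oaz2 over Oaz1, and the groups overlap for Arg2 over Arg1.

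Myc encodes a transcription factor that is known to activate Odc1 and that binds the E-box CACGTG. Its expression was 1.07, 1.91 and 0.936 FPKM in the sham samples and 11.5, 12.0 and 13.0 FPKM in the I/R samples, without overlap. The promoter window of RefSeq (GRCr8, 250 bases before to 50 after the start) was found for 7 of the 10 genes, and CACGTG, which reads the same on both strands, was in 2 of them, against 6.42% of all 33469 windows. These are shown because they are the matches among the family, with the E-box in capitals and 10 bases on either side.
Srm, chr5:164308819-164308844, plus strand: ccctcggcccCACGTGgcccggcagc
Oaz1, chr7:9537209-9537234, minus strand: gtgacgcaaaCACGTGggggcgggac
The E-box begins 173 bases before the start of Srm and 234 bases before that of Oaz1. A match of letters does not show binding, and the windows of the other 5 genes, Odc1 among them, held no match. Sequence outside these windows was not searched, so sites elsewhere in these genes are not covered.

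Genes around the family were taken from a list of 40, of which 32 passed the filter. Of these, 15 were called higher and 2 lower (limma), where 25.5% and 7.36% of all genes were, and their median log2 fold change was 0.80, against 0.29. After the rescaling 6 were called higher and 5 lower, where 7.25% and 26.1% of all genes were, and the median was 0.043, against −0.46. The same shares of all genes stand beside each count in the groups that follow. With 1 sample left out between 9 and 16 were called higher, the 9 without sham replicate 3. Among those called higher, Slc7a1, Nos2, Gamt and Azin2 had sham means under 0.5 FPKM and passed the filter only through the I/R group. Slc7a1, Nos2 and Gamt were also among those called higher after the rescaling.

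Of the 4 genes of eIF5A hypusination, 3 were called higher. Deoxyhypusine synthase (Dhps) moves the aminobutyl group of spermidine onto the translation factor eIF5A, and deoxyhypusine hydroxylase (Dohh) then hydroxylates the modified residue. Eif5a was 16.5, 22.9 and 20.1 FPKM in the sham samples and 80.0, 50.8 and 52.2 FPKM in the I/R samples (log2 fold change 1.60, limma adjusted p = 0.0037). Dhps was 5.36, 4.20 and 3.37 FPKM in the sham samples and 17.7, 12.4 and 11.0 FPKM in the I/R samples (log2 fold change 1.64, limma adjusted p = 0.0037). Dohh had a log2 fold change of 1.79 (limma adjusted p = 0.0049). All 3 stayed higher after the rescaling, at 0.82, 0.87 and 1.03, while Eif5a had an adjusted p of 0.065 after quantile normalization (limma). The paralog Eif5a2 had means of 0.527 ± 0.0414 (sham) and 0.473 ± 0.0682 FPKM (I/R, SD, n = 3 each) and was not called.

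Of the 10 genes tested around arginine, ornithine and nitric oxide, 4 were called higher and 0 lower, and after the rescaling 2 higher and 1 lower. The one called lower was Gatm, the first enzyme of creatine synthesis, with a log2 fold change of −0.081 as deposited and −0.85 after the rescaling (limma adjusted p = 0.81 and 0.037). Nos2, the inducible nitric oxide synthase that competes with arginase for arginine, was 0.382, 0.426 and 0.180 FPKM in the sham samples and 1.33, 1.44 and 1.46 FPKM in the I/R samples. It stayed at a low level, with groups far apart (log2 fold change 1.87, SE 0.34, limma adjusted p = 0.0051, and 1.21 after the rescaling). Oat, ornithine aminotransferase, which takes ornithine toward glutamate and proline, was 7.77, 6.94 and 6.34 FPKM in the sham samples and 21.5, 11.7 and 11.1 FPKM in the I/R samples (limma adjusted p = 0.024). Its call was lost without sham replicate 2 or 3, after the rescaling, after quantile normalization (limma adjusted p = 0.19) and with no filter on low values (0.052). Aldh18a1, which makes ornithine and proline precursors from glutamate, had a log2 fold change of 1.20 (limma adjusted p = 0.016), lost without sham replicate 3 and after the rescaling. Gamt, the last enzyme of creatine synthesis, was low in the sham group, with means of 0.279 ± 0.163 (sham) and 1.58 ± 0.738 FPKM (I/R, SD, n = 3 each). Its log2 fold change was 2.12 (limma adjusted p = 0.0092), and it was 1.49 after the rescaling.

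Among the transporters, 2 of the 6 tested were called higher and 2 lower, and after the rescaling 1 higher and 3 lower. The third of these was Atp13a2, a lysosomal polyamine exporter, with a log2 fold change of −0.24 as deposited and −0.96 after the rescaling (limma adjusted p = 0.47 and 0.044). Slc7a1, the main carrier of arginine and other cationic amino acids into cells, was 0.274, 0.212 and 0.223 FPKM in the sham samples and 1.20, 1.84 and 1.13 FPKM in the I/R samples (log2 fold change 2.12, SE 0.34, limma adjusted p = 0.0035, and 1.49 after the rescaling). Slc3a2, the heavy chain that several amino acid carriers share, rose from 8.81 ± 0.817 to 21.6 ± 2.91 FPKM (mean ± SD, n = 3 each), and its call was lost after the rescaling and after quantile normalization. Slc7a7, a light chain that exports cationic amino acids, fell from 1.71 ± 0.238 FPKM to 0.697 ± 0.224 FPKM (log2 fold change −1.21, limma adjusted p = 0.012). Slc18b1, a vesicular polyamine transporter, fell from 1.63 ± 0.384 FPKM to 0.562 ± 0.170 FPKM (log2 fold change −1.40, limma adjusted p = 0.011). The falls of both stood on every scale tried, while at a mean FPKM of at least 5 they were not tested.

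Of the 8 genes of S-adenosylmethionine supply and methylthioadenosine salvage, 4 were called higher. The first supplies the substrate of Amd1, and the second reclaims the methylthioadenosine that Srm and Sms release. These were Mat2a (log2 fold change 1.24, limma adjusted p = 0.0093), Mri1 (1.35, adjusted p = 0.0058), Adi1 (1.09, adjusted p = 0.022) and Apip (0.77, adjusted p = 0.036). The call of Adi1 was lost without sham replicate 2 (adjusted p = 0.083, limma), sham replicate 3 (0.08) or I/R replicate 1 (0.067), and that of Apip without sham replicate 2 (0.1), sham replicate 3 (0.13), I/R replicate 1 (0.096) or I/R replicate 3 (0.069). After quantile normalization the calls of Mat2a, Adi1 and Apip were lost (limma adjusted p = 0.3, 0.076 and 0.16). Those of Adi1 and Apip were also lost with samples centred at their medians or with no filter on low values. Mtap, the phosphorylase that opens the salvage, was 1.15, 1.92 and 1.30 FPKM in the sham samples and 0.844, 0.902 and 0.775 FPKM in the I/R samples, all lower (log2 fold change −0.70, limma adjusted p = 0.077). After the rescaling 0 of the 8 were called higher and 1 lower, which was Mtap (−1.42, limma adjusted p = 0.011). Of the 3 genes that acetylate or oxidise polyamines, Smox, the spermine oxidase, was called higher (log2 fold change 0.83, limma adjusted p = 0.042). Its call was lost after the rescaling, quantile normalization or median centring, with no filter, without the trend, and on leaving out any 1 sample except sham replicate 2. Azin2, a further antizyme inhibitor, rose from 0.275 ± 0.0827 to 0.892 ± 0.302 FPKM (SD, n = 3 each, log2 fold change 1.39, limma adjusted p = 0.023), a call lost without sham replicate 3 or I/R replicate 2 and after the rescaling.

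**Figure D4:**
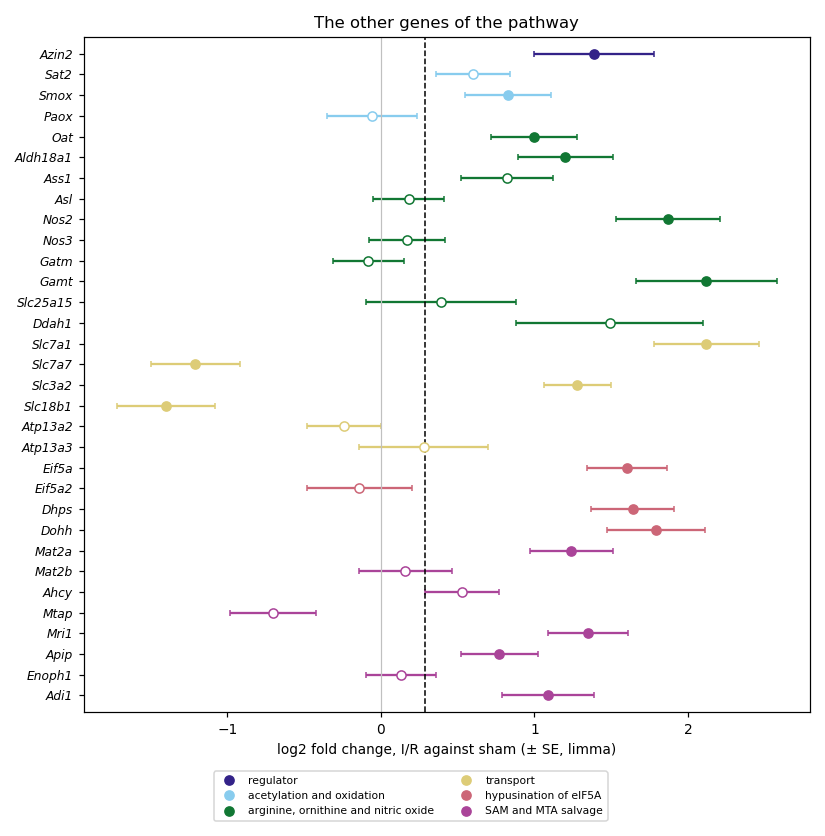
Log2 fold change, I/R against sham, of the 32 other genes of the pathway that were tested, with bars of 1 standard error (limma), coloured by group. Filled circles passed an adjusted p of 0.05 and open circles did not, and the dashed line is the median of all genes tested, 0.29. Eif5a, Dhps and Dohh lie together between 1.60 and 1.79, and Slc7a7 and Slc18b1 are the filled circles under 0.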

How the data were processed

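RNA of myocardium from 3 sham and 3 I/R samples was sequenced with a stranded total RNA kit. The authors deposited FPKM values per gene in 1 table. The submitters' processing notes name STAR and HTSeq without versions. The genome build, the annotation and the total divided by are not given in the sources used here, and absolute depth is unknown. Columns were matched to samples by name and rows that share a symbol were summed. Paralogs and pseudogenes may share reads.

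Log2(FPKM + 0.1) was compared with limma 3.58.1 in R 4.3.3 (intensity trend) for genes whose FPKM averaged 0.5 or more over the samples, with Benjamini-Hochberg adjustment and a threshold of 0.05. Exact permutation tests used SciPy 1.17.1. The planned ratio of Odc1 over Sat1 could not be formed, so 5 ratios were adjusted together. The fit was tested on simulated data, where it estimated the changes closely but called few of the smaller ones. The simulation had independent noise, few changed genes and no shift in composition, so its outcome need not hold for these data. The members, lists and tests were chosen with earlier results of these data known. By plan, all members were named with values and, from the list of 40 related genes, those past the threshold as deposited. Myc was added for comparison, and Eif5a2, Cps1 and Otc were named after their values were seen. So were Gatm, Atp13a2 and Mtap, which passed the threshold only after the rescaling. Alternatives covered the pseudocount, the filter, 4 scalings, the trend, repeated symbols, the block and each sample left out. Markers of red blood cells were not matched and were not analysed here.

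Replicate numbers come from the labels. Samples that share a number deviated from their group means together, with correlations of 0.203, 0.117 and 0.118. A pair with different numbers, sham replicate 3 and I/R replicate 2, reached 0.12. Every matched correlation was over 0.1, but so was that of this unmatched pair, so the correlations do not single out pairs. The main fit had no block, and the limma fit was repeated with replicate number as a blocking term. Relative depth was read from genes with a mean under 0.05 FPKM, and whole-number ratios were accepted within a tolerance of 1e-05 of the largest.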

Additional observations from a re-analysis of the deposited data

How the results depend on the processing

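Odc1 and Srm kept their direction and call under all 17 alternatives, with log2 fold changes of 1.31 to 2.29 and 0.96 to 1.93 and adjusted p-values of at most 0.014 and 0.018 (limma). Under the replicate block, 5 members were called higher and 0 lower, 16 and 2 of the other pathway genes and 3085 and 895 of all genes, and no call of a member changed. Of the members, 5 were higher as reported, 2 after quantile normalization and 3 after rescaling without the mitochondrially encoded mRNAs. The log2 fold change of Amd1 turned to −0.020 with samples centred at their medians, −0.45 under quantile normalization and −0.55 after the rescaling, which also turned those of Sms (−0.076) and Arg1 (−0.17). Of the other pathway genes, 6 were higher and 0 lower under the stricter filter (mean FPKM of 5), where fewer were tested, 8 higher after quantile normalization, and 6 higher and 5 lower after the rescaling. Over all genes, 2790 were higher and 805 lower as reported, 166 lower under the stricter filter, 504 lower after rescaling to TPM, 1554 lower after centring, 1441 higher and 1559 lower after quantile normalization, and 793 higher and 2857 lower after the rescaling. The cause of these shifts was not tested. With each sample left out in turn, 3 to 5 members were higher, 9 to 16 of the other pathway genes, and 1528 to 2557 of all genes, with 309 to 881 lower. The log2 ratios kept their direction under all 9 alternatives tried for each. The counts behind Arg2 are low, and those of Arg1 vary widely between samples of a group.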
